A study of Homo sapiens with 9 samples.

Results

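Death receptor genes are the members of the tumor necrosis factor (TNF) receptor superfamily whose products carry apoptosis signals, together with the decoy receptors, ligand and adaptor that work with them. The 10 genes described here are FAS, TNFRSF10A, TNFRSF10B, TNFRSF10C, TNFRSF10D, TNFRSF1A, EDA2R, TNFRSF21, TNFSF10 and FADD. They were taken by name from a table of RNA-seq expected counts for 26475 gene symbols, and all 10 were listed there. Of the 10 genes, 8 passed the filter on low counts and were among the 16417 genes tested, and TNFRSF10D and TNFSF10 did not pass it.

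The libraries were made from A375 cells, a human melanoma cell line that carries a BRAF mutation, and every group was the same parental line grown in DMEM with fetal bovine serum. Cells received TP-472, an inhibitor of the bromodomains of the chromatin proteins BRD9 and BRD7, at 5 µM or 10 µM, or the solvent DMSO, and RNA was collected after 24 h. Each of the 3 groups held 3 libraries, which the series calls biological replicates without saying how the cultures were kept apart. One cell line was used, so the values describe A375 and no other melanoma.

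A typical death receptor is a membrane protein with a cysteine-rich outer part that binds a ligand and, inside the cell, a death domain. EDA2R is on the list by name, and this description of the inner part is not meant to cover it. NGFR and TNFRSF25 also have a death domain but are counted with the other TNF receptor genes. Statements on the death receptor genes refer to the listed genes only. Upon ligand binding, FAS and the TRAIL receptors recruit the adaptor FADD, which brings caspase-8 into the death-inducing signaling complex, where the caspase becomes active. Decoy receptors bind the same ligand but lack a working death domain.

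TP-472 did not move the death receptor genes in 1 direction. At 10 µM, the transcripts of FAS, EDA2R, TNFRSF10B and TNFRSF10A rose and those of TNFRSF21 and TNFRSF1A fell, whereas FADD and TNFRSF10C did not pass the test. FAS and EDA2R rose most, to 3.36-fold and 3.11-fold of the DMSO level, and TNFRSF21 fell most, to 0.401 of it. At 5 µM, 3 of the 8 tested genes rose, 2 fell and 3 did not pass. At 10 µM, 4 rose, 2 fell and 2 did not pass. A gene was called when its p from edgeR's quasi-likelihood test, adjusted by Benjamini-Hochberg over all 16417 genes, was under 0.05. By the same call, 4.4% of all tested genes rose and 5.81% fell at 5 µM, and 16.4% rose and 18% fell at 10 µM, which makes 10.2% and 34.3% in either direction. Between the doses 8.4% of all genes were called. The median log2 fold change of the 8 genes was 0.46 at 5 µM and 0.40 at 10 µM, beside 0.0055 and 0.011 over all genes tested. These are counts and medians over a short list, given as a description.

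Library totals ran from 42483091 to 51298130 expected counts, and levels are given as CPM, the counts scaled to a common library size with TMM factors. The ribosomal RNA gene RNA28S5 took 6.91% to 17.8% of the counts. Among the 10 µM libraries, number 1 was the most divergent, with an SD of log2 deviations over genes of 0.956, compared with 0.706 and 0.727 in the other 10 µM libraries and 0.377 to 0.402 in DMSO. The melanoma markers SOX10 (417 CPM), NES (329 CPM) and MITF (31.9 CPM) were present in DMSO, while the pigment genes MLANA (0.173 CPM) and PMEL (1.48 CPM) were close to 0 and TYR had 0 counts in the 9 libraries. The summed level of the 10 melanoma markers was 1310 to 1320 CPM in DMSO, and it was 1060 to 1090 CPM and 975 to 1050 CPM with the lower and the higher dose. Of the 8 tested, 3 fell at 10 µM (NES, AXL and S100A1). The summed level of 9 listed markers of other cell types was 31.8 to 34.5 CPM in the DMSO libraries, 21 to 23.9 CPM with 5 µM TP-472 and 18.1 to 21.1 CPM with 10 µM. Most of that sum was PDGFRB (22.8 CPM in DMSO), while CD3E had 0 counts in the 9 libraries. These sums fell with the dose, and their part in the results was not tested.

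FAS (CD95) encodes the receptor for Fas ligand and lies on chromosome 10, plus strand (chr10:88990582-89015785, GRCh38). Its level was 16.4, 19.2 and 17.7 CPM in the DMSO libraries, 43.2, 40.3 and 47.1 CPM at 5 µM, and 59.0, 59.0 and 61.4 CPM at 10 µM. Each treated library was above each DMSO library, and each 10 µM library was above each 5 µM library. The log2 fold change was 1.29 at 5 µM (SE 0.0896, adjusted p = 3.18e-05, edgeR quasi-likelihood test) and 1.75 at 10 µM (SE 0.0904, adjusted p = 9.73e-07). In this RNA from bulk cultures, a change in the share of cells that express a gene cannot be told apart from a change in its RNA per cell.

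FAS was also the one death receptor gene called higher at 10 µM than at 5 µM. The log2 difference between the doses was 0.46 (SE 0.0872, 95% interval 0.26 to 0.65, edgeR adjusted p = 0.0121), where 2.87% of all tested genes were called higher. This call was lost when 5 µM library 1 (adjusted p = 0.0601) or 5 µM library 2 (adjusted p = 0.0675) was left out, and log2 differences without single libraries ranged from 0.40 to 0.51. Without the outlying 10 µM library 1 it was 0.46 (adjusted p = 0.000339). Of the exonic length of FAS, 8.93% overlaps ACTA2 on the opposite strand, and although the libraries were made to keep strand (dUTP), no source used here says whether the counting used it.

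EDA2R (XEDAR) encodes the receptor for the A2 isoform of ectodysplasin and lies on the X chromosome, minus strand (chrX:66595637-66639298). In DMSO its level was 11, 11.9 and 12.8 CPM. At 5 µM it was 34.5, 33.9 and 34.7 CPM, and the 10 µM libraries had 33.6, 37.2 and 40.1 CPM. All treated libraries were above all DMSO libraries, and the ranges of the doses overlapped. The log2 fold change was 1.53 at 5 µM (SE 0.0947, adjusted p = 1.91e-05) and 1.64 at 10 µM (SE 0.0949, adjusted p = 1.86e-06). Between the doses, the log2 difference of EDA2R was 0.11 with a 95% interval of -0.098 to 0.31 (adjusted p = 0.515), so a further rise of more than 0.31 lay outside the interval.

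**Figure D1:**
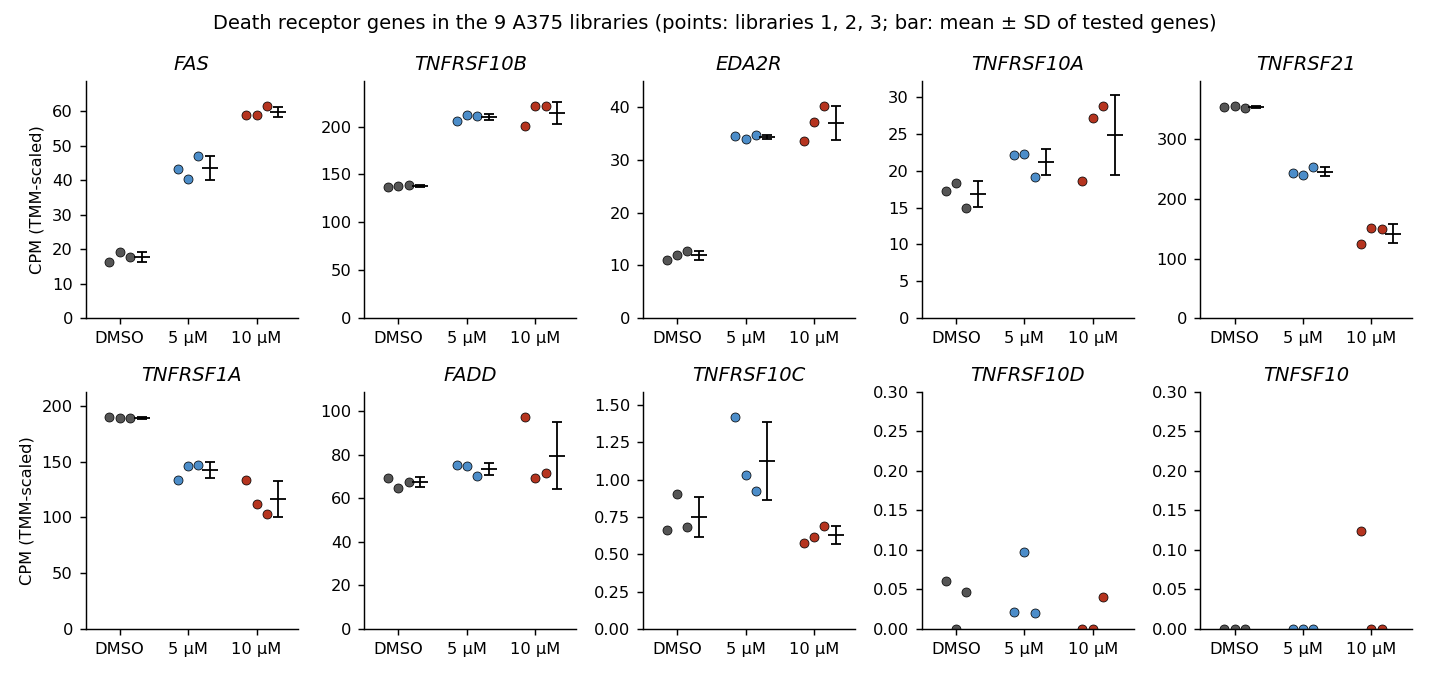
Level of each of the 10 genes (CPM, linear axes that start at 0) in the 9 libraries. Points are libraries, and bars show the mean and SD of 3 libraries except for TNFRSF10D and TNFSF10, which had too few counts for them. FAS rises from 16.4 to 19.2 CPM in DMSO to 59.0 to 61.4 CPM at 10 µM, and TNFRSF21 falls from 353 to 355 CPM to 124 to 152 CPM.

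TNFRSF10B (DR5) and TNFRSF10A (DR4) encode the receptors through which the ligand TRAIL induces apoptosis, and both lie on chromosome 8, minus strand. The level of TNFRSF10B was 137, 138 and 139 CPM in DMSO, 206, 212 and 211 CPM at 5 µM, and 201, 221 and 221 CPM at 10 µM. The treated libraries of both doses were above the DMSO libraries and overlapped each other. Its log2 fold change was 0.61 at 5 µM (SE 0.0651, adjusted p = 0.000459) and 0.64 at 10 µM (SE 0.0651, adjusted p = 6.9e-05). The log2 difference of TNFRSF10B between the doses was 0.032, with a 95% interval of -0.11 to 0.18 (adjusted p = 0.799). The increase in TNFRSF10B was thus already present at 5 µM, and a further change of more than 0.18 up or 0.11 down lay outside the interval.

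TNFRSF10A was lower and less certain. Its level was 17.3, 18.3 and 14.9 CPM in DMSO, 22.1, 22.2 and 19.2 CPM at 5 µM, and 18.6, 27.2 and 28.7 CPM at 10 µM. At 10 µM, library 1 (18.6 CPM) was barely above the highest DMSO library, while libraries 2 and 3 were well above it. The log2 fold change was 0.33 at 5 µM (SE 0.158, adjusted p = 0.233) and 0.56 at 10 µM (SE 0.158, edgeR adjusted p = 0.0207). The 10 µM call was lost without DMSO library 1 or 3, or without 10 µM library 2 or 3, with adjusted p from 0.0577 to 0.0918. Without 10 µM library 1 the log2 fold change was 0.73 (adjusted p = 1.14e-05) at 10 µM and 0.33 (adjusted p = 0.00784) at 5 µM, that library being part of the estimate of the spread at both doses. The log2 difference of TNFRSF10A between the doses was 0.23 (95% interval -0.12 to 0.58, adjusted p = 0.403), and 0.40 (adjusted p = 0.00623) without that library. Genes on the other strand, TNFRSF10A-AS1 among them, cover 16.6% of the exonic length of TNFRSF10A.

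The listed decoy receptor genes of TRAIL, TNFRSF10C and TNFRSF10D, were at the lower end of what the libraries could measure. This does not hold for TNFRSF11B, described below, whose product also binds TRAIL and which had 21.2 CPM in DMSO. TNFRSF10C (DcR1) encodes a receptor anchored in the membrane by a lipid, with no death domain. Its level was 0.664, 0.905 and 0.686 CPM in DMSO, 1.42, 1.03 and 0.924 CPM at 5 µM, and 0.578, 0.615 and 0.693 CPM at 10 µM. The 5 µM libraries were above the DMSO libraries without overlap, but the log2 fold change of 0.58 had a 95% interval of -0.22 to 1.38 (adjusted p = 0.379). At 10 µM the log2 fold change of TNFRSF10C was -0.26, with an interval of -1.07 to 0.55 (adjusted p = 0.627). In GENCODE, 39.3% of its exonic length overlaps other genes on the same strand, and 31.9% of its stretches of 75 bases are found in those genes too. None of its 9 expected counts was a whole number, so its reads were shared out between genes and its level is uncertain. TNFRSF10D (DcR2), which has a shortened death domain, had 3, 0 and 2 counts in DMSO, 1, 5 and 1 at 5 µM, and 0, 0 and 2 at 10 µM. At this depth no difference in TNFRSF10D was detectable.

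TNFSF10 encodes TRAIL, the ligand of the receptors above. It had 0 counts in 8 of the 9 libraries and 6 counts (0.124 CPM) in 10 µM library 1, the most divergent library. The cells therefore had transcripts of the TRAIL receptors with hardly any of the ligand itself, and no fold change is given.

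TNFRSF1A (TNFR1), the main receptor of TNF, signals through the adaptor TRADD to either NF-kB or cell death, and lies on chromosome 12, minus strand (chr12:6328757-6342114). Its level was 190, 189 and 189 CPM in DMSO, 134, 146 and 147 CPM at 5 µM, and 134, 112 and 103 CPM at 10 µM. Treated libraries were all below the DMSO libraries. Its log2 fold change was -0.41 at 5 µM (SE 0.0962, adjusted p = 0.025) and -0.70 at 10 µM (SE 0.0965, adjusted p = 0.000436). The 5 µM call was lost when any 1 DMSO or 5 µM library was left out, with adjusted p from 0.0735 to 0.107. Between the doses the log2 difference of TNFRSF1A was -0.29 (95% interval -0.51 to -0.079, adjusted p = 0.0933), and it was -0.41 (adjusted p = 1.92e-05) without 10 µM library 1.

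TNFRSF21 (DR6), a receptor with a death domain that is also known from neurons and lymphocytes, lies on chromosome 6, minus strand (chr6:47231532-47309905). Its level was 354, 355 and 353 CPM in DMSO, 243, 240 and 254 CPM at 5 µM, and 124, 152 and 150 CPM at 10 µM. The 3 groups were separate and ordered by dose. The log2 fold change of TNFRSF21 was -0.53 at 5 µM (SE 0.0843, adjusted p = 0.00374) and -1.32 at 10 µM (SE 0.0856, adjusted p = 3.74e-06). It was also the one death receptor gene called lower at 10 µM than at 5 µM, by -0.79 on the log2 scale (SE 0.0847, adjusted p = 0.000566), where 5.53% of all tested genes were called lower.

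FADD, the adaptor of FAS and the TRAIL receptors, lies on chromosome 11, plus strand (chr11:70203163-70207390). Its level was 69.5, 65.0 and 67.8 CPM in DMSO, 75.5, 74.9 and 70.2 CPM at 5 µM, and 97.4, 69.6 and 71.8 CPM at 10 µM. The highest value came from 10 µM library 1, and the other 10 µM libraries lay near those of the 5 µM group. Its log2 fold change was 0.12 at 5 µM (95% interval -0.14 to 0.39, adjusted p = 0.61) and 0.24 at 10 µM (95% interval -0.030 to 0.51, adjusted p = 0.155). Without 10 µM library 1, the 10 µM value of FADD was 0.065 (adjusted p = 0.339). Over its exonic length, 54.9% overlaps AP000879.1 on the opposite strand, so its level cannot be separated from that gene if strand was not used.

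**Figure D2:**
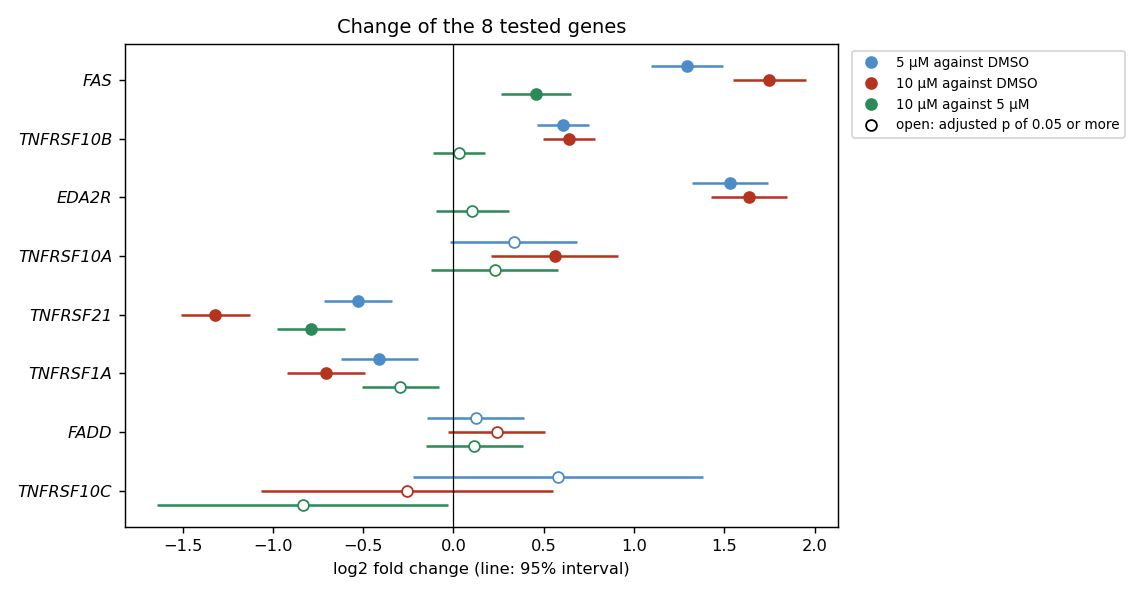
Log2 fold change of the 8 tested genes in the 3 comparisons between doses, with 95% intervals from the edgeR quasi-likelihood fit. Filled points passed an adjusted p of 0.05. FAS and TNFRSF21 have filled points in all 3 comparisons, while EDA2R and TNFRSF10B have them against DMSO at both doses, with intervals between the doses that include 0.

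Groups that did not overlap were more frequent than calls. At 10 µM, 5 of the 8 genes had every treated library above every DMSO library and 2 had every one below, beside 23.4% and 26% of all tested genes. At 5 µM these numbers were 6 and 2, beside 23.7% and 25%. Among the 5 genes at 10 µM, TNFRSF10A and FADD were separated by little. Their lowest 10 µM values were 18.6 and 69.6 CPM, beside highest DMSO values of 18.3 and 69.5 CPM. With a fold change of at least 1.5 required as well, 3 genes rose at 5 µM and 3 rose and 2 fell at 10 µM, beside 2.14% of all tested genes that rose and 2.72% that fell at 5 µM, and 8.57% that rose and 10.5% that fell at 10 µM. Between the doses, TNFRSF21 alone of the 8 genes passed both limits, beside 2.59% of all genes that fell and 1.42% that rose. TNFRSF10A at 10 µM, with a fold change of 1.48, was below that limit.

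Levels can be compared between genes only per length. For this the CPM of each gene was divided by the kilobases of its exons in the basic transcript set of GENCODE 29. In DMSO the order was TNFRSF21 (98.5 ± 0.278 CPM per kb, SD, n = 3), TNFRSF1A (63.6 ± 0.194), FADD (36.6 ± 1.23), TNFRSF10B (33.3 ± 0.241), FAS (6.88 ± 0.543), TNFRSF10A (6.2 ± 0.644), EDA2R (3.32 ± 0.251) and TNFRSF10C (0.438 ± 0.0776). The ranges of FAS and TNFRSF10A overlapped and those of all other neighbors did not. TNFRSF21 was higher per length than 97% of the 15306 tested genes with a length, and EDA2R higher than 42.5%. At 10 µM, TNFRSF10B (51.7 ± 2.79 CPM per kb), FADD (43.2 ± 8.39), TNFRSF21 (39.5 ± 4.35) and TNFRSF1A (39.1 ± 5.36) were the highest, and the range of FADD (37.8 to 52.9) overlapped those of the other 3. FAS came next with 23.2 ± 0.537 CPM per kb, followed by EDA2R (10.3 ± 0.91) and TNFRSF10A (9.15 ± 2.01), whose ranges overlapped. With these lengths, TNFRSF10B and TNFRSF21 exchanged their order. The ranges were 33.0 to 33.5 against 98.2 to 98.7 CPM per kb in DMSO. At 10 µM they were 48.5 to 53.3 against 34.5 to 42.3. Over all GENCODE transcripts the exons are longer for TNFRSF10B (5158 against 4146 bases) and FAS (4253 against 2582), among others. For TNFRSF21 they are equal (3595 bases). The order between genes can therefore depend on the length used, and it was not worked out with the longer lengths.

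**Figure D3:**
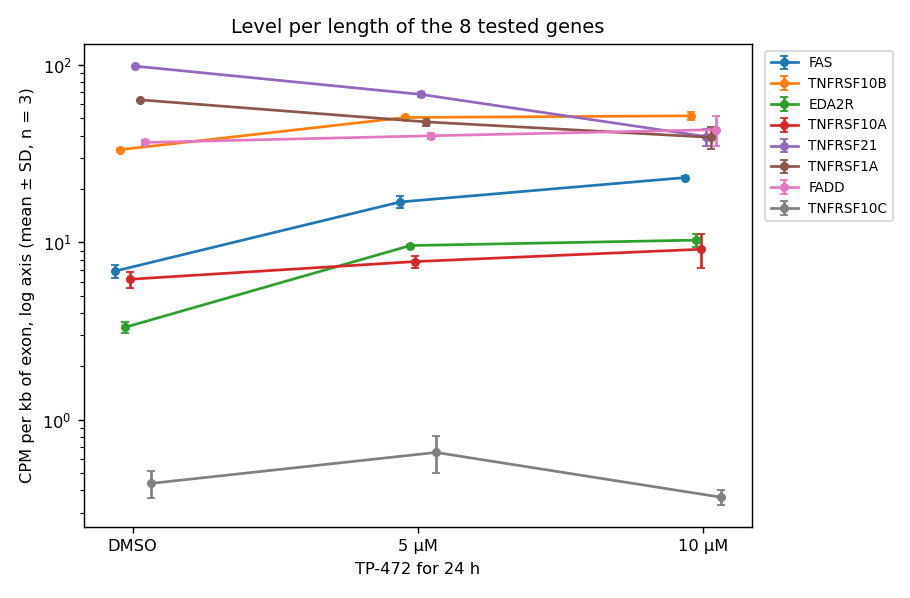
Level per exon length (CPM per kb, log axis) of the 8 tested genes in each group, as the mean with bars of 1 SD over 3 libraries, joined by lines. With lengths from the GENCODE basic set, TNFRSF21 and TNFRSF1A lead in DMSO, while TNFRSF10B has the highest mean at 10 µM (51.7 CPM per kb).

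Promoter sequences were looked up for the 10 genes, since the genes that rose and those that fell can be compared there by their letters. RefSeq windows (GRCh38.p14) were given for 6 of them. TNFRSF10A, TNFRSF10B, TNFRSF10C and TNFRSF10D had no entry. The windows below are shown for the genes with the largest rises and falls, 5′ to 3′ on the strand of the gene, limited to bases before the first start that GENCODE places outside exons. Capitals mark a match to the AP-1 pattern TGANTCA or a GC box (GGGCGG or its reverse complement). The AP-1 pattern takes any base at N and is a loose form of the AP-1 site.
FAS, chr10:88990548-88990581: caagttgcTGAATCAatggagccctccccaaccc
EDA2R, chrX:66639299-66639519: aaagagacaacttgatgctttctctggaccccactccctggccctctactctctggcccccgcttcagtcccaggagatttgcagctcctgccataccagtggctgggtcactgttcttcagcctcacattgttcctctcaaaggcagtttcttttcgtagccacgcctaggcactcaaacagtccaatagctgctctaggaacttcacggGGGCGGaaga
TNFRSF21, chr6:47309906-47310155: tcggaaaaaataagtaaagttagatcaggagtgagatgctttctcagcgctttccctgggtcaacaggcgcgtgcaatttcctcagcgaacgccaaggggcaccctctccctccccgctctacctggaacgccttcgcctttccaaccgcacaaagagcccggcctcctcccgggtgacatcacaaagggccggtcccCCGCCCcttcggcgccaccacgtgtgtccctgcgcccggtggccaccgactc
TNFRSF1A, chr12:6342115-6342326: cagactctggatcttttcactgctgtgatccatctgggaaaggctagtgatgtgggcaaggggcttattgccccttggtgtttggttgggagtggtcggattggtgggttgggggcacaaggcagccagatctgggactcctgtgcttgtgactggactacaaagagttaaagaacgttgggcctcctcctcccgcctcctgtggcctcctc

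Motifs were searched on both strands in 35116 RefSeq windows of 250 bases. Results are given for 4 motifs, and a further pattern that was searched is not reported here. A GC box was found in 42.6%, the loose AP-1 pattern in 6.57%, an NF-kB pattern (GGGRNWYYCC) in 5.21% and a cAMP response element (TGACGTCA) in 1.65%. The NF-kB pattern is loose too, with A or G at R, C or T at Y, A or T at W and any base at N. The first window of FAS held 1 match to the AP-1 pattern (TGAATCA) and 1 GC box. Those of EDA2R and TNFRSF21 held 1 GC box each, whereas the window of TNFRSF1A held no match to the 4 motifs. The first windows also overlap annotated exons, by 216 bases in FAS, 29 in EDA2R and 38 in TNFRSF1A, and those bases are not printed. The GC box of the first FAS window lies among them. RefSeq gave later starts for FAS and EDA2R, whose windows overlap annotated exons too and are not printed. In part they overlap the first windows and share GC boxes with them. Of the later windows, the second of FAS held 1 match to the NF-kB pattern and 2 GC boxes and the third 1 GC box. The second window of EDA2R held 1 match to the AP-1 pattern (TGAGTCA) and 6 GC boxes. These matches describe letters in the windows, and binding of a factor was not measured.

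For FAS, TNFRSF10B and EDA2R, the tested genes with the most similar levels over the 9 libraries were looked up by Pearson's r of log2(CPM + 0.5) among 13677 genes. These coefficients describe 9 libraries in 3 dose groups, and any gene that follows the dose in the same way has a high one. NOV (r = 0.996), CALB1 (r = 0.995) and SLAMF7 (r = 0.993) were closest to FAS. CALB1, a calcium-binding protein, rose by a log2 fold change of 1.93 at 5 µM and 2.66 at 10 µM. NEFL, a neurofilament gene, was the closest to both TNFRSF10B (r = 0.997) and EDA2R (r = 0.997), and had 51.0 to 53.9 CPM in the DMSO libraries, 110 to 118 CPM with 5 µM TP-472 and 116 to 125 CPM with 10 µM. Next to TNFRSF10B came WSCD1 (r = 0.997) and FAM198B (r = 0.996), and next to EDA2R came GPRC5A (r = 0.996) and TNFRSF10B (r = 0.996). The number of genes with r above 0.95 was 234 for FAS, 133 for TNFRSF10B and 133 for EDA2R.

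Of 21 other genes of the TNF receptor superfamily, 14 were tested, with a median log2 fold change of -0.51 at 10 µM. At that dose 2 rose and 6 fell, beside 16.4% and 18% of all tested genes. The share that rose was thus near that of all genes. At 5 µM 4 fell and 0 rose by the edgeR quasi-likelihood test, beside 5.81% and 4.4% of all tested genes. There, 1 was higher at an unadjusted p under 0.05, 1 was called higher by DESeq2 and by edgeR's likelihood ratio test, and 0 by limma-voom. The decoy receptor gene TNFRSF11B (osteoprotegerin), whose product binds RANKL and TRAIL, fell from 21.2 ± 0.775 CPM to 10.4 ± 0.537 at 5 µM and 8.02 ± 0.532 at 10 µM (log2 fold change -1.40, edgeR adjusted p = 5.41e-06). TNFRSF19 (TROY) fell from 39.9 ± 1.51 CPM to 14.9 ± 1.92 at 10 µM (adjusted p = 6.27e-06), and TNFRSF11A (RANK) from 5.01 ± 0.547 to 1.98 ± 0.229 (adjusted p = 0.000439). TNFRSF12A, the receptor of TWEAK, rose by a log2 fold change of 1.13 (adjusted p = 0.00114), with 318 CPM in 10 µM library 1 and 205 and 174 CPM in the others. TNFRSF14 (HVEM) rose by 0.72 (adjusted p = 0.00429). NGFR, a receptor with a death domain, had a log2 fold change of -1.04 at 5 µM and -0.81 at 10 µM (edgeR adjusted p = 0.000524 at both). TNFRSF25, another, had -0.19 (adjusted p = 0.436) and -0.36 (adjusted p = 0.0528) and was not called.

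Of 17 other ligand genes of the family, 11 were tested. At each dose 2 rose, beside 4.4% of all tested genes at 5 µM and 16.4% at 10 µM. The share that rose at 10 µM was thus near that of all genes. By the edgeR quasi-likelihood test 0 fell at either dose, beside 5.81% and 18% of all tested genes. At each dose 2 were lower at an unadjusted p under 0.05. At 10 µM, DESeq2, limma-voom and edgeR's likelihood ratio test each called 1 lower, and 2 were called lower without 10 µM library 1 and 1 without 10 µM library 3. At 5 µM, DESeq2 called 1 lower and the other tools 0, and 1 was called lower without 10 µM library 1. The genes that rose at 10 µM were TNFSF9 (4-1BB ligand), from 30.1 ± 1.25 to 62.4 ± 9.64 CPM (log2 fold change 1.05, adjusted p = 6.91e-05), and TNFSF15 (TL1A), from 0.895 ± 0.176 to 2 ± 0.258 CPM (1.16, adjusted p = 0.00915). The ligand genes looked at for FAS, TNFRSF1A and EDA2R were scarce, and no ligand of TNFRSF21 was looked at. FASLG, the ligand of FAS, had 0 counts in the 9 libraries. TNF, the ligand of TNFRSF1A, had 16, 21 and 15 counts in DMSO, 2, 5 and 5 at 5 µM, and 6, 10 and 0 at 10 µM, and its log2 fold change of -1.78 at 10 µM did not pass the test (adjusted p = 0.171). At 5 µM the log2 fold change of TNF was -2.15 (adjusted p = 0.203), and -2.14 (adjusted p = 0.017) in a fit of the 2 groups compared. LTA, another ligand of TNFRSF1A, had 2, 1 and 2 counts in DMSO, 7, 4 and 3 at 5 µM and 19, 9 and 14 at 10 µM and was not tested. EDA, the gene of the EDA2R ligand, had 0.32 ± 0.0262 CPM in DMSO and a log2 fold change of 0.62 at 10 µM, which did not pass.

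Of 28 genes whose products act next to the receptors, 27 were tested, and 4 rose and 4 fell at 10 µM, shares near the 16.4% and 18% of all tested genes, with a median log2 fold change of -0.044. At 5 µM 1 rose and 4 fell, beside 4.4% and 5.81% of all tested genes. The number that fell at 5 µM was 1 without any single DMSO library or 5 µM library 2 or 3, 2 without 5 µM library 1 and with the replicate block, and 7 (with 3 that rose) without 10 µM library 1. The 10 µM counts were 7 and 11 without 10 µM library 1, and 0 and 2 without DMSO library 2. At 10 µM, 1 rose without DMSO library 1 or 3, and 2 rose without 10 µM library 2. Without 10 µM library 1 the calls over all genes rose too, from 1676 to 5721 at 5 µM and from 5634 to 8170 at 10 µM. CASP8, the caspase that FADD recruits, had 30.1 ± 1.15 CPM in DMSO, 31.8 ± 2.3 at 5 µM and 29.9 ± 0.723 at 10 µM, and its log2 fold change at the higher dose was -0.0086 (95% interval -0.19 to 0.17, adjusted p = 0.949). Its sign turned under other scalings, while the interval excludes changes of more than 0.19. CASP10, a related caspase, had a log2 fold change of 0.59 (adjusted p = 0.0633), CFLAR, which encodes the caspase-8 inhibitor c-FLIP, one of 0.096 (adjusted p = 0.573), and TRADD one of -0.39 (adjusted p = 0.0782). FAIM2, an inhibitor of FAS-mediated death, fell from 10.8 ± 0.914 CPM to 3.58 ± 0.43 (adjusted p = 0.000237), and TRAF5, an adaptor of several family members, from 20 ± 0.707 to 10.7 ± 1.34 (adjusted p = 0.000244). RBCK1, a subunit of the linear ubiquitin ligase, fell by 0.35 on the log2 scale (adjusted p = 0.0146). RIPK1, the kinase recruited to TNFRSF1A, rose by 0.44 at 5 µM (adjusted p = 0.00454) and by 0.26 at 10 µM (adjusted p = 0.021). TRAF6 rose by 0.52 (adjusted p = 0.0125) and DIABLO, which encodes an antagonist of inhibitor of apoptosis proteins, by 0.40 (adjusted p = 0.0276). The calls of these last 4 genes at 10 µM were near the threshold, and the log2 values moved little when it was missed. The call of RIPK1 was lost without any 1 DMSO library or 10 µM library 2 (log2 0.22 to 0.27, adjusted p 0.0587 to 0.0929). It was also lost with no filter (edgeR adjusted p = 0.0519) and in a fit of the 2 groups compared (edgeR adjusted p = 0.0536). That of DIABLO was lost without any 1 DMSO library (0.36 to 0.42, adjusted p 0.0696 to 0.107) and in a fit of the 2 groups compared (edgeR adjusted p = 0.0724). Those of TRAF6 (0.49, adjusted p = 0.0557) and RBCK1 (-0.33, adjusted p = 0.0608) were lost without DMSO library 2. TRADD was called without 10 µM library 1 (-0.49, adjusted p = 0.0102) or 5 µM library 2 (-0.39, adjusted p = 0.0425), and CASP10 without 10 µM library 3 (0.77, adjusted p = 0.0183). CASP10 was also called by DESeq2 (adjusted p = 0.0349), by edgeR's likelihood ratio test (adjusted p = 0.0498) and with upper-quartile scaling (adjusted p = 0.0492).

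**Figure D4:**
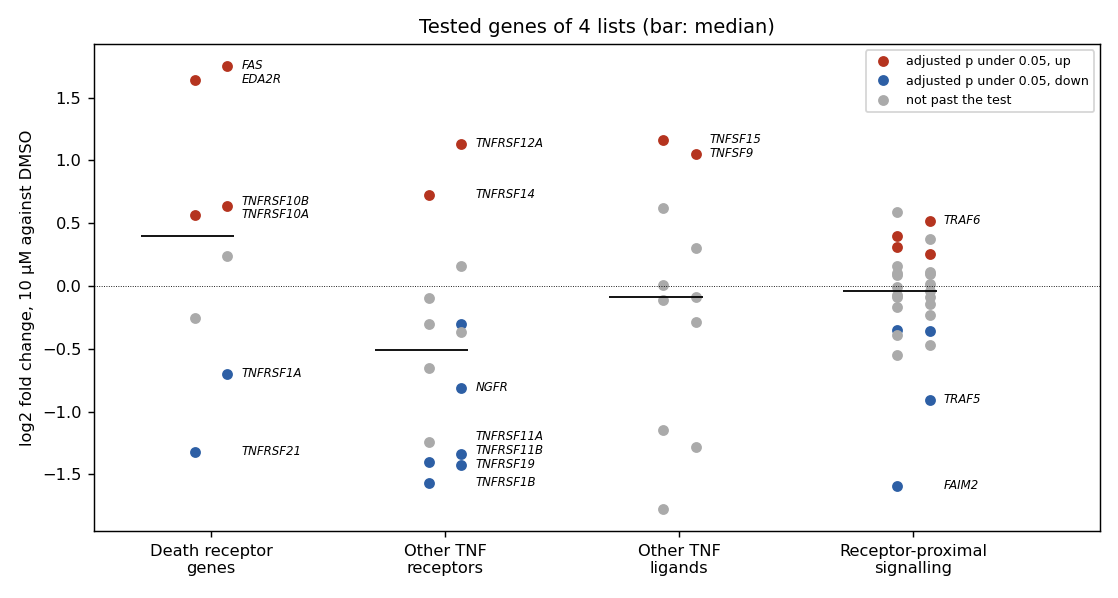
Log2 fold change at 10 µM against DMSO for the tested genes of 4 lists: the death receptor genes (8), other TNF receptor genes (14), other TNF ligand genes (11) and receptor-proximal signaling genes (27). Red points rose and blue points fell at an adjusted p under 0.05, grey points did not pass, and the short lines are the medians (0.40, -0.51, -0.090 and -0.044).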

How the data were processed

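RNA-seq was analysed in 9 libraries of A375 cells. The authors deposited 1 table of RSEM expected counts per gene symbol, of which 10.6% to 13.8% per library carry a fraction. The submitters' processing notes name Bowtie2 2.1.0, RSEM 1.2.15 and the hg38 build, and no source used here gives the annotation or the strand option of the counting. Per the study's methods, the libraries kept strand through dUTP in the second strand. The study's methods describe selection of mRNA, but its design text names removal of ribosomal RNA. Samples were grouped by the labelled dose.

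Expected counts were rounded and fitted with edgeR 4.0.16 (R 4.3.3) over the 3 groups, with TMM scaling, filterByExpr and the quasi-likelihood test. P-values were adjusted by Benjamini-Hochberg over 16417 genes. The SE is the log2 fold change divided by the root of the F statistic. Intervals are 95% intervals. The script was tested on simulated counts. Other settings included DESeq2 1.42.0, limma 3.58.1 (voom), other scalings and filters, fits of 2 groups, a replicate block and leaving out single libraries. Lengths come from the basic transcript set of GENCODE 29 (GRCh38), and overlaps from all its transcripts. 

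The 10 genes, the gene lists and the tests were chosen with earlier results of these data known. Named genes are the 10 members, their known partners, up to 3 genes per list and direction with the smallest adjusted p among those called at 10 µM, and the 3 genes most similar to FAS, TNFRSF10B and EDA2R (mean level of 1 CPM or more). NGFR and TNFRSF25 were named in addition. Some reference genes fixed with these lists are not reported here.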

Additional observations from a re-analysis of the deposited data

How the results depend on the processing

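FAS, TNFRSF10B, EDA2R and TNFRSF21 at both doses and TNFRSF1A at 10 µM kept their direction and their call under every alternative run, except that TNFRSF21 at 5 µM did not reach the 1.5-fold change that 1 of them required. Replicate numbers showed no sign of pairing the libraries. Deviations of same-numbered libraries correlated by -0.049 to 0.032, and those of differently numbered libraries by -0.033 to 0.045. Whether the cultures were paired is not known from these values. With the replicate block, 1 death receptor gene in place of 2 was called lower at 5 µM, TNFRSF1A having a log2 fold change of -0.41 (adjusted p = 0.0507). The block changed no other call of these genes. Over all genes, the numbers called of 1676 (5 µM), 5634 (10 µM) and 1379 (10 µM against 5 µM) became 2680 and 2462 with DESeq2 (5 µM and between doses), 6331 and 335 with fits of 2 groups (the same comparisons), and 799, 3137 and 658 when a 1.5-fold change was required. Without single libraries they ranged from 673 to 5721, 3772 to 8170 and 543 to 4050. Leaving out 10 µM library 1 gave the upper end of each range. In fits of 2 groups, 5 genes were called higher at 5 µM, with TNFRSF10A at 0.33 (adjusted p = 0.00672) and FADD at 0.13 (adjusted p = 0.0424), while TNFRSF10A at 10 µM (0.57, adjusted p = 0.0514) and the dose difference of FAS (0.47, adjusted p = 0.063) were no longer called, which left 0 called higher between the doses. DESeq2 called 2 genes lower between the doses, TNFRSF1A being at -0.28 (adjusted p = 0.0449). The 1.5-fold rule left 0 genes called lower at 5 µM and 0 called higher between the doses. Without single libraries, 1 to 2 genes were called lower at 5 µM, and 0 to 2 higher and 1 to 2 lower between the doses. The log2 values then ranged for TNFRSF10A from 0.25 to 0.40 (5 µM), 0.44 to 0.73 (10 µM) and 0.11 to 0.40 (between doses), for TNFRSF1A from -0.44 to -0.37 (5 µM) and -0.41 to -0.21 (between doses), and for FAS from 0.40 to 0.51 between doses. FADD between doses ranged from -0.058 to 0.20, and its sign turned without 10 µM library 1. CASP8 at 10 µM turned to 0.00078 with DESeq2's size factors in edgeR, 0.033 with upper-quartile scaling, 0.013 with a 1 CPM filter and 0.00047 with DESeq2, and ranged from -0.045 to 0.0070 without single libraries, never past the threshold. At 5 µM, where neither was called, EDA ranged from -0.21 to 0.36 and DIABLO from -0.0057 to 0.051 without single libraries. Receptor-proximal genes called at 10 µM numbered 0 to 7 higher and 2 to 11 lower over the alternatives, other TNF receptor genes 2 higher and 5 to 8 lower, and other ligand genes 2 to 3 higher and 0 to 2 lower. At 5 µM, receptor-proximal genes called numbered 0 to 3 higher and 1 to 8 lower, other TNF receptor genes 0 to 1 and 3 to 7, and other ligand genes 2 to 3 and 0 to 2. The cause of these changes was not tested.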
